A study of Homo sapiens with 4 samples.

Results

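RAD21 ChIP-seq of wild-type HCT116 cells, a human colon carcinoma line, gave 4097 peaks at single protein-coding promoters. A peak was taken as such when its summit lay within 1000 bp of the 5′ end of exactly 1 protein-coding gene and of no other gene of any type. These were 7.42% of the 55201 peaks on chromosomes 1 to 22 (95% Wilson interval 7.21 to 7.64), out of 56853 peaks in the whole list. They fell at 3818 genes, of which 3541 had 1 such peak, 275 had 2 and 2 had 3. Isolated promoters are the protein-coding starts with no other gene start within 1000 bp, out of 19111 protein-coding starts on these chromosomes. Of these, 3645 of 13055 isolated promoters (27.9%, 27.2 to 28.7) had such a peak. They held 3921 of the 4097 peaks, and the others lay at starts with a neighbouring start. A promoter without a listed peak was not detected at this depth, which does not show that RAD21 was absent from it.

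The study depleted the cohesin subunit RAD21 and followed the movement of a genomic locus. Its 4 ChIP-seq libraries were RAD21 ChIP of untreated wild-type HCT116 cells, RAD21 ChIP of untreated HCT116_RAD21_AID cells, RAD21 ChIP of those cells after 6 h in auxins (500 μM of IAA and 500 μM of α-NAA), and the Input of cells treated in this way. HCT116_RAD21_AID is 1 clone that carries the mAID degron on RAD21 and the ubiquitin ligase OsTIR1. All values below come from the wild-type library, which has neither degron nor auxin. The other 3 were not analysed here. A peak list holds no expression values, so the identity of the cells could not be checked from marker genes. With 1 library there is no spread between replicates, no test was made, and the intervals cover counting error only.

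Cohesin is a ring-shaped complex that extrudes loops of chromatin, and RAD21 is the subunit that closes the ring. Extruding cohesin is halted by CTCF, a zinc finger protein whose binding sequence has a direction, so RAD21 peaks collect at CTCF sites. Cohesin is also found at active promoters, where the loader NIPBL, the transcription machinery and open chromatin are present. For each peak the list gave the fold enrichment, the ratio of ChIP fragments to the local background at the summit. The fragment numbers were recovered from the fold enrichment and the p-value, and were whole for all members. They ranged from 15 to 742 with a median of 31, over a median background of 6.99 fragments.

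The member peaks with the highest fold enrichment were read against the genome sequence, since they show what lay under the strongest signals. Of the 10 highest, 5 held an exact match to the CTCF consensus sequence within 50 bp of the summit. They are given as 30 bases of GRCh38, 5′ to 3′ on the strand that carries the match, which stands in capitals.
WDR38, chr9:124853202-124853231, minus strand: gcagagcggCCACTAGAGGGCgcgccagcc
CCDC42, chr17:8746114-8746143, minus strand: ggcagacggCCAGCAGGGGGCgccagacga
LPIN3, chr20:41340160-41340189, minus strand: tgacactggCCAGCAGGGGGCaggcggtga
CHD9, chr16:53054952-53054981, plus strand: gccccgcgcCCACTAGGTGGCgcctgcgct
GRIK4, chr11:120511225-120511254, plus strand: tcccgaatgCCACCAGGGGGCgccccttgc
In CCDC42, CHD9 and GRIK4 the match pointed in the direction of the gene, and in WDR38 and LPIN3 it pointed the opposite way. All 5 lay upstream of the gene start, with the centre of the match between 909 bp (CCDC42) and 25 bp (CHD9) before it. The windows of the 2 highest members held no match, also with 1 mismatch allowed. They are given as 60 bases around the summit, on the strand of the gene, with no capitals.
COMTD1, chr10:75236038-75236097, minus strand: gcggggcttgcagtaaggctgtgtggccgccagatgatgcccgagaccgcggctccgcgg
GRM4, chr6:34154876-34154935, minus strand: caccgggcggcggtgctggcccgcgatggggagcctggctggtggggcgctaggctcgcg
The window of COMTD1 lies upstream of the gene, and that of GRM4 in an intron.

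COMTD1, which encodes a predicted methyltransferase, had the highest fold enrichment of all members at 102.7, from 709 fragments over a background of 5.91. Its summit lay 38 bp upstream of the start, and the peak interval covered the start. GRM4, a metabotropic glutamate receptor gene, followed with 99.6 at 716 bp downstream. The same GRM4 summit lay 8819 bp upstream of the start of the canonical transcript, the single transcript that Ensembl chooses to represent a gene. The dopamine receptor gene DRD1 reached 88.6 at 636 bp upstream, and WDR38, which encodes a WD repeat protein, reached 86.6 at 221 bp upstream. The receptor tyrosine phosphatase gene PTPRE had 81.7 at 85 bp upstream. GPRC5B, an orphan G protein-coupled receptor gene, had 75.1 at 271 bp upstream, which is 1590 bp upstream of the canonical start. The remaining 4 genes of the 10 were CCDC42, a coiled-coil protein of sperm, and LPIN3, a lipin phosphatidate phosphatase, both at 71.0, then the chromatin remodeller CHD9 at 67.8 and the kainate receptor subunit GRIK4 at 67.5. The CCDC42 summit was 1274 bp upstream of the canonical start. Of the 10 highest summits 9 lay upstream of the gene start and 1 downstream. Among summits within 25 bp of the start, CHD9 (4 bp upstream) was highest, followed by the zinc finger gene ZNF843 at 49.1 and the exocyst gene EXOC7 at 33.7. These ZNF843 and EXOC7 summits were 393 and 17802 bp upstream of the canonical start. The highest downstream summits beyond 250 bp after GRM4 were those of the ephrin receptor gene EPHA4 (65.0 at 523 bp) and the inner ear gene OTOS (61.7 at 614 bp). Both of these lay in introns and were upstream of the canonical start, by 1375 and 3290 bp.

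**Figure D1:**
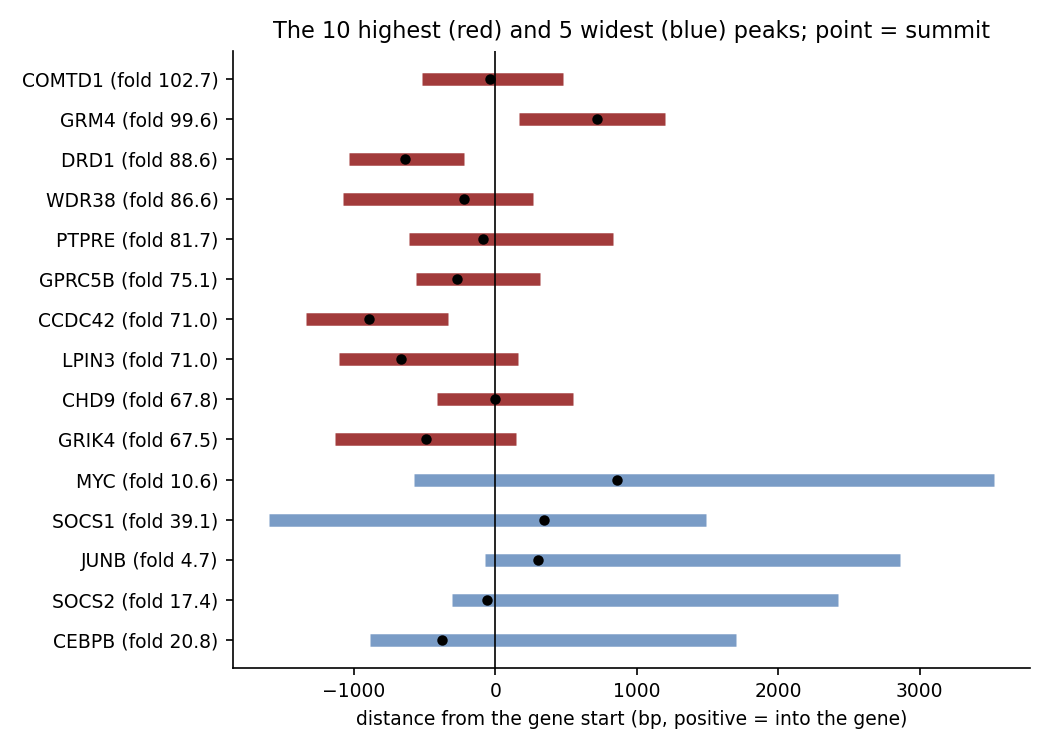
Intervals of the 10 member peaks with the highest fold enrichment (red) and of the 5 widest (blue), drawn as the distance in bp from the gene start with positive values into the gene. The point marks the summit and the number after each gene name is the fold enrichment. Among the 10 highest only GRM4 has its summit downstream of the gene start. The 5 widest intervals, from 2586 to 4101 bp, all cross the gene start, but that of SOCS2 does not reach the canonical start.

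Over all 4097 members, more summits lay downstream than upstream of the gene start, the most upstream annotated transcript end. This order reversed when the same members were measured from the canonical start, but not when members were chosen anew by canonical starts. There were 2387 downstream (58.3%, 56.7 to 59.8), 1706 upstream (41.6%, 40.1 to 43.2) and 4 at the start itself. The upstream and downstream windows have the same length only before other genes are taken into account. Summits near another gene start were dropped, and the effect of this on the shares of the sides was not tested. The median position was 121 bp downstream, with quartiles at 178 bp upstream and 424 bp downstream. The median was 34 bp downstream when only peaks with a q-value of at most 1e-05 were kept, and 76 bp with a limit of 500 bp to the start. Measured from the canonical start, which cannot lie before the gene start, the same 4097 summits had a median position of -31 bp (quartiles -432 and 278), and 47.9% were downstream (46.4 to 49.4). Members chosen anew by canonical starts had a median position of 96 bp, and 57.0% were downstream (55.6 to 58.4). Summits were within 250 bp of the start in 1710 members (41.7%, 40.2 to 43.3) and within 500 bp in 2792 (68.1%, 66.7 to 69.6). The peak interval covered the start in 1656 members (40.4%, 38.9 to 41.9). By annotation, 1375 summits (33.6%) were in an exon of the gene and 1012 (24.7%) in an intron.

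The profile along the promoter had 2 crests with a dip between them. The 100 bp before the start held 453 summits (11.1% of members) and were the fullest bin of this length. The first 100 bp of the gene held 272 (6.64%), fewer than the bins on either side. The counts rose again to 392 (9.57%) between 100 and 200 bp and 367 (8.96%) between 200 and 300 bp, then declined with distance. The dip was also present in the 1910 members whose canonical transcript starts at the same base as the gene, with 208 summits in the last 100 bp before the start, 125 in the first 100 bp and 186 in the next. In these members 54.3% of summits were downstream (52.1 to 56.5), against 61.7% (59.7 to 63.7) in the 2187 members whose canonical start lies elsewhere.

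The 2 crests differed in strength. Among the 646 members with a fold enrichment of at least 10, only 183 summits were downstream (28.3%, 25.0 to 31.9) and the median position was 100 bp upstream. Among the 2713 members below 5, 1893 were downstream (69.8%, 68.0 to 71.5) and the median position was 205 bp downstream. The 738 members between 5 and 10 were intermediate, with 42.1% downstream (38.6 to 45.7) and a median 42.5 bp upstream. Of the 269 members with a fold of at least 20, 21.9% (17.4 to 27.3) were downstream. From the canonical start, 16.1% of the same members at or above 10 (13.5 to 19.1) and 60.2% of those below 5 (58.3 to 62.0) were downstream. Read from the position, the median fold was 6.38 (quartiles 3.73 and 12.8) in the last 100 bp before the start, 3.76 (2.92 and 5.76) in the first 100 bp after it and 3.38 (2.85 and 4.30) in the next. The share with a fold of at least 10 fell from 30.7% in the last 100 bp before the start to 12.5% in the first 100 bp after it and 4.34% between 100 and 200 bp. Far from the start the upstream side was again high, with a median of 7.05 between 1000 and 900 bp upstream against 3.73 between 900 and 1000 bp downstream. GC content within 50 bp of the summit had the same median of 69.3% in members at or above 10 and below 5, and the median background was 6.94 and 6.96 fragments. Between the sides the GC content differed, with a median of 66.3% for upstream and 70.3% for downstream summits. Their median background was 7.15 and 6.94 fragments. Members of lower fold rest on fewer fragments, a median of 26 below 5 against 153 at or above 10.

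**Figure D2:**
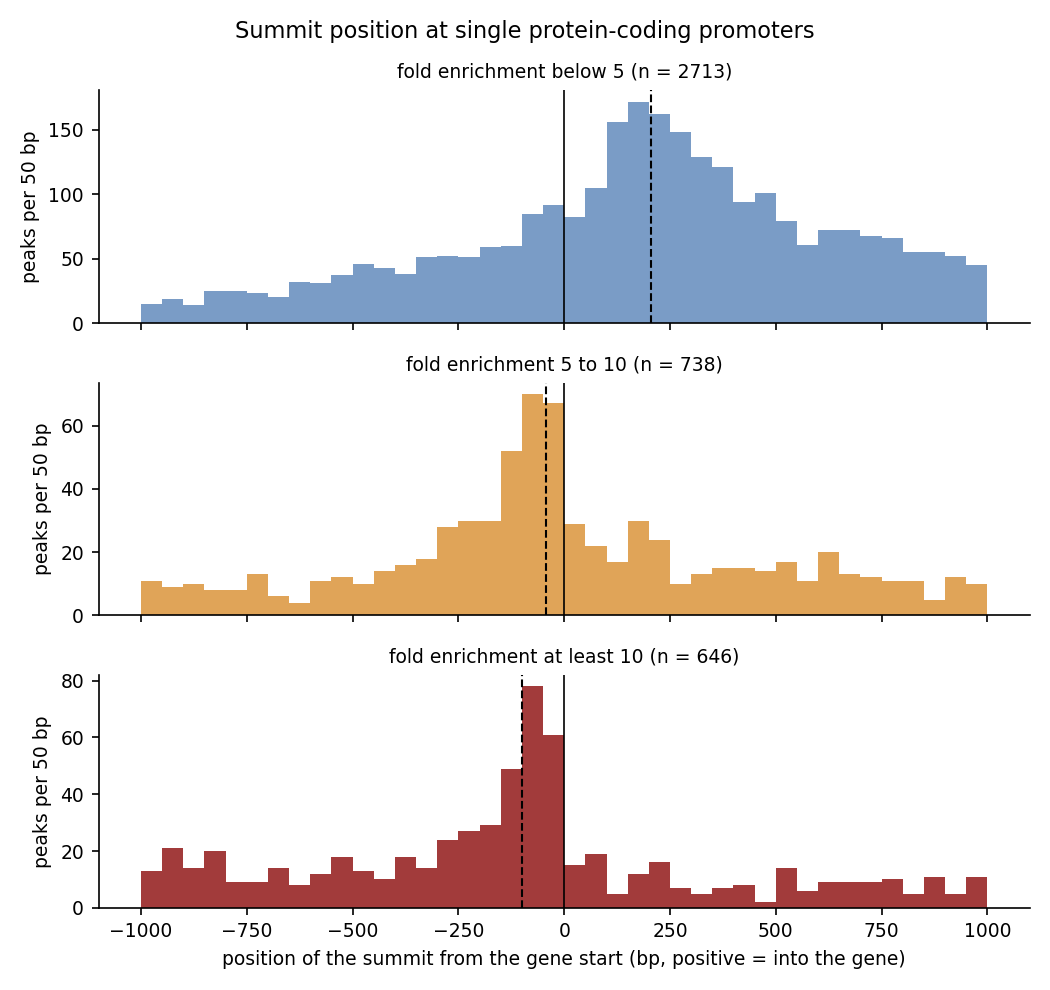
Histograms of the summit position from the gene start, in 50-bp bins with positive values into the gene, for members with a fold enrichment below 5, from 5 to 10 and of at least 10. The solid line marks the gene start and the dashed line the median, which moves from 205 bp downstream below 5 to 100 bp upstream at 10 or more.

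**Figure D3:**
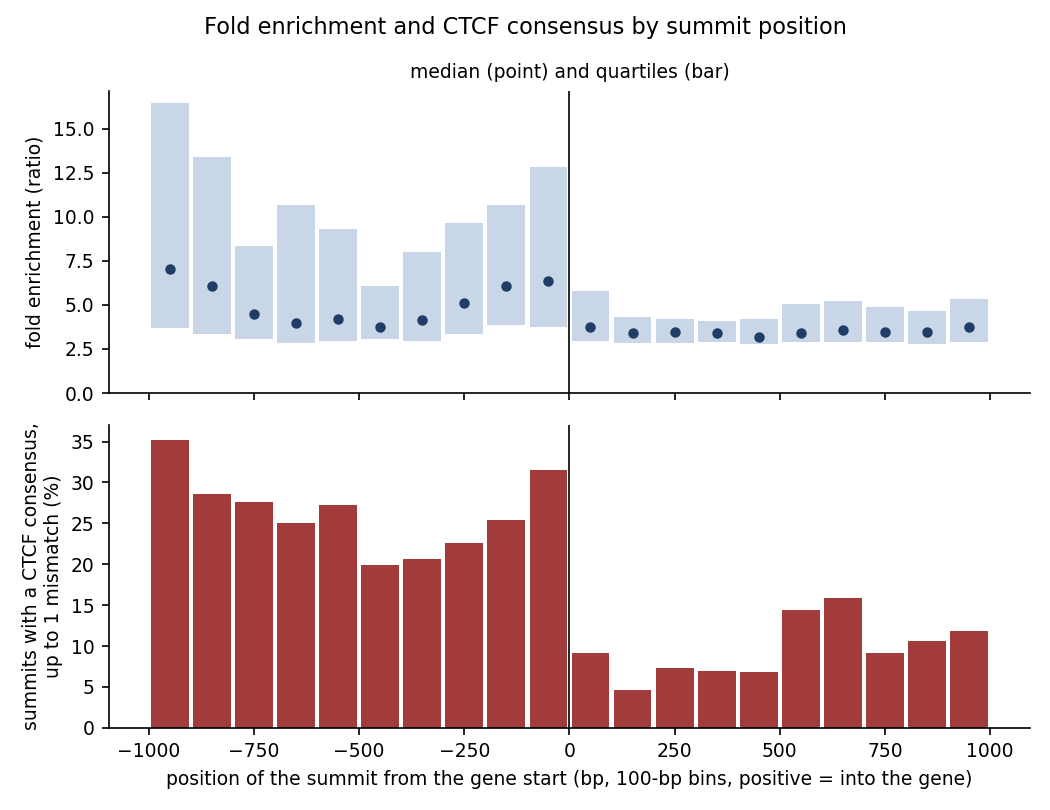
Upper panel, median fold enrichment (point) with quartiles (bar) in 100-bp bins of summit position from the gene start. Lower panel, the percentage of summits in each bin with a CTCF consensus match of up to 1 mismatch within 50 bp, which is 31.6% in the last 100 bp before the start and 9.19% in the first 100 bp after it.

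The CTCF consensus sequence lay within 50 bp of the summit in 146 members (3.56%, 3.04 to 4.18), and in 667 (16.3%, 15.2 to 17.4) when 1 mismatch was allowed. At the starts of the 9410 isolated promoters without a peak, windows of the same length held it in 2 (0.0213%) and, with 1 mismatch, in 96 (1.02%, 0.836 to 1.24). In windows 5 kb to either side of the member summits, 2 of 8194 held it exactly and 66 (0.805%, 0.634 to 1.02) with 1 mismatch. Where an exact match was present, its centre was a median of 17 bp from the summit. A position weight matrix, which scores every base instead of demanding a fixed string and was set so that 1% of isolated promoters without a peak pass, was passed by 671 members (16.4%, 15.3 to 17.5). A matrix re-estimated from its own best matches was passed by 892 (21.8%, 20.5 to 23.1). Both matrices were built from summits of this same peak list with no gene start within 10 kb. The first used 3702 exact matches and the re-estimated one 16586 matches. With the position of a peak taken at its midpoint, the share with an exact match was 1.60%.

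Members with and without the consensus differed in strength and in place. The 146 members with an exact match had a median fold of 11.7 (quartiles 6.74 and 20.7), a median width of 702.5 bp and a median position 106 bp upstream, and 23.3% were downstream (17.2 to 30.8). The 3430 members without a match, also with 1 mismatch, had a median fold of 3.56 (2.89 and 5.01), a median width of 462.5 bp and a median position 159 bp downstream, and 63.4% were downstream (61.8 to 65.0). With 1 mismatch allowed, 26.7% of upstream summits (24.7 to 28.9) and 8.84% of downstream summits (7.77 to 10.0) held a match. The share rose with the fold, from 5.38% below 5 to 28.9% between 5 and 10, 47.7% at or above 10 and 53.9% at or above 20. At a fold of at least 10 the 2 sides were closer. There the re-estimated matrix was passed by 64.2% of upstream summits (59.7 to 68.5) and by 60.1% of downstream summits (52.9 to 66.9). Below 5 it was passed by 13.7% upstream (11.5 to 16.2) and 4.38% downstream (3.55 to 5.4). COMTD1, GRM4 and PTPRE were the members of the highest 10 that passed neither matrix.

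The consensus has a direction, which could be set against that of the gene. Of the 146 exact matches 89 pointed in the direction of the gene (61.0%, 52.9 to 68.5). For upstream summits it was 75 of 112 (67.0%, 57.8 to 75), and for downstream summits 14 of 34 (41.2%, 26.4 to 57.8). With 1 mismatch, the shares were 276 of 438 upstream (63.0%, 58.4 to 67.4) and 90 of 200 downstream (45.0%, 38.3 to 51.9). Split by distance under the matrix built on exact matches, a division chosen after the values were seen, 179 of 244 matches within 250 bp upstream pointed with the gene (73.4%, 67.5 to 78.5). Farther upstream it was 109 of 215 (50.7%, 44.1 to 57.3). Of the named members outside the highest 10, the blood cell gene CD8A, the mitochondrial ribosomal gene MRPL38 and the liver gene CYP2E1 each had an exact match that pointed against the gene, while that of the transcription factor gene CEBPB pointed with it.

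Peak widths at single protein-coding promoters ran from 222 to 4101 bp, with a median of 486 bp (quartiles 336 and 721). A width of at least 1200 bp was reached by 231 members (5.64%, 4.97 to 6.39). Width went with strength, from a median of 405 bp below a fold of 5 to 806.5 bp at or above 10. The 5 widest peaks were at genes of transcription and cytokine signalling. The widest was at MYC, the growth-control transcription factor, with 4101 bp and a fold of 10.6, and its summit was 860 bp inside the gene row but 63 bp from the canonical start. SOCS1, a suppressor of cytokine signalling, had 3088 bp and a fold of 39.1, with the summit 345 bp downstream in an exon. JUNB, an AP-1 transcription factor, had 2929 bp with a fold of only 4.66. SOCS2, of the same family as SOCS1, had 2727 bp and a fold of 17.4. Its summit was 2922 bp upstream of the canonical start, which the interval did not reach. CEBPB had 2586 bp and a fold of 20.8. Since an interval is drawn wherever neighbouring signal stays above the threshold, a wide peak can hold several sites.

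Compared with peaks that had no gene start within 1000 bp, members were of lower fold and slightly wider. The median fold was 3.80 (quartiles 2.97 and 6.61) in members and 5.98 (3.62 and 11.4) in the 45901 peaks away from gene starts, whose median width was 441 bp (317 and 615). A fold of at least 10 was reached by 646 members (15.8%, 14.7 to 16.9) and by 29.2% (28.8 to 29.6) of peaks away from starts. A width of at least 1200 bp was found in 1.87% (1.75 to 1.99) of the latter, against 5.64% of members. The 613 peaks at bidirectional promoters had protein-coding starts on both strands within 1000 bp of the summit, whatever other starts were there. Their median fold was 3.45 (2.87 and 4.49), and 6.53% (4.83 to 8.76) reached 10. The 1789 peaks at promoters of lncRNA genes alone had a median fold of 5.22 (3.27 and 12.7), and 31.0% (28.9 to 33.2) reached 10. Greater width was not particular to members. The median width was 457 bp at bidirectional and 522 bp at lncRNA promoters. A width of at least 1200 bp was found in 4.24% (2.91 to 6.14) and 5.25% (4.31 to 6.39) of these. The share with the exact CTCF consensus followed the order of the median fold. It was 1.47% (0.774 to 2.77) at bidirectional promoters and 3.56% in members. At lncRNA promoters it was 9.56% (8.28 to 11), and away from starts 12.6% (12.3 to 12.9). GC content at the summit ran the other way for the last 2 classes, with medians of 62.4% at lncRNA promoters and 53.5% away from starts, against 68.3% at bidirectional promoters and 69.3% in members. Another RAD21 summit lay within 1000 bp of 433 members (10.6%, 9.66 to 11.5), of 19.1% (16.2 to 22.4) of bidirectional peaks, of 8.33% (7.14 to 9.7) of lncRNA peaks and of 2.98% (2.83 to 3.14) of peaks away from starts. The 2801 peaks at other combinations of gene starts were close to members in fold, width and neighbouring summits. Their median fold was 3.99, their median width 487 bp, and 10.4% (9.35 to 11.6) had another summit within 1000 bp. A width of at least 1200 bp was found in 4.75% (4.02 to 5.6). They differed from members in sequence, with the exact consensus in 6.5% (5.64 to 7.47) and a median GC content of 65.3%.

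The isolated promoters that had a member peak differed in base composition from those that had none. Promoters were called CpG-rich when the 250 bp before to 50 bp after the start had a GC content of at least 50% and an observed to expected CpG ratio of at least 0.6. Of 5998 CpG-rich isolated promoters 43.8% (42.5 to 45.0) had a peak, against 14.4% (13.6 to 15.3) of the other 7057. A peak with a fold of at least 10 was present at 6.69% (6.08 to 7.35) of CpG-rich and 3.16% (2.78 to 3.59) of other promoters. Where a peak was present, it was lower at CpG-rich promoters, with a median of 3.83 (quartiles 3.01 and 6.54) against 4.49 (3.22 and 9.0). The share with a peak rose with gene length, from 22.5% in the shortest of 4 groups of equal size to 27.6%, 28.3% and 33.3% in the longest. Across chromosomes it ran from 22% on chromosomes 11 and 21 to 33.3% on chromosome 5.

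Short promoter motifs were counted on both strands in the same 300 bp. The GC box GGGCGG, a binding site of SP family factors, was in 66.7% of isolated promoters with a peak, 39.4% of those without and 47.0% of all. The TATA box TATAAA was in 7.27%, 15.0% and 12.9%. The ETS motif CCGGAAG was in 13.3%, 6.56% and 8.43%, and the cyclic AMP response element TGACGTCA in 2.77%, 1.49% and 1.85%. The CCAAT box (CCAAT) was in 32.3%, 36.2% and 35.1%, the E-box CACGTG in 8.61%, 7.36% and 7.71%, and the NRF1 motif GCGCATGC in 3.62%, 2.31% and 2.67%. Among CpG-rich promoters alone, the GC box was in 80.5% with and 78.8% without a peak, TATAAA in 4.91% and 4.60%, and the ETS motif in 15.9% and 13.4%. There the E-box was in a lower share with a peak than without, 9.06% (8.02 to 10.2) against 11.4% (10.4 to 12.5). Shares were also lower, but with overlapping intervals, for the CCAAT box and NRF1. They were 31.9% (30.1 to 33.7) against 34.0% (32.4 to 35.6) for CCAAT and 4.84% (4.08 to 5.72) against 5.10% (4.41 to 5.9) for NRF1. TGACGTCA was in 3.43% with and 3.0% without a peak. A match is a run of letters and was not tested as a binding site.

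The share of isolated promoters with a member peak was counted for 11 gene lists and set beside the 27.9% over all isolated promoters. Of mitochondrial ribosomal protein genes, 22 of 42 isolated promoters had a member peak (52.4%, 37.7 to 66.6). Aminoacyl-tRNA synthetases, which charge tRNAs with amino acids, had 7 of 13 (53.8%, 29.1 to 76.8), and DNA replication genes 9 of 20 (45.0%, 25.8 to 65.8). Glycolysis genes had 4 of 9 (44.4%, 18.9 to 73.3), subunits of the transcriptional coactivator Mediator 6 of 14 (42.9%, 21.4 to 67.4) and proteasome subunits 9 of 24 (37.5%, 21.2 to 57.3). The epithelial junction list, which also holds other epithelial genes, had 11 of 28 (39.3%, 23.6 to 57.6). Neuronal genes had 6 of 28 (21.4%, 10.2 to 39.5), blood cell genes 4 of 34 (11.8%, 4.67 to 26.6), liver genes 2 of 29 (6.90%, 1.91 to 22) and striated muscle genes 2 of 37 (5.41%, 1.5 to 17.7). The intervals of 6 lists, those of glycolysis, proteasome, Mediator, DNA replication, epithelial junction and neuronal genes, hold 27.9%. When every list gene on these chromosomes was counted, isolated or not, with any RAD21 summit within 1000 bp, the synthetases had 7 of 20 (35.0%), close to the 33.5% of all protein-coding genes, while mitochondrial ribosomal proteins had 53.8%, blood cell genes 11.4%, liver genes 8.82% and striated muscle genes 4.88%. CpG-rich promoters were 34 of the 42 for mitochondrial ribosomal proteins, 18 of 24 for the proteasome, 12 of 14 for Mediator, 15 of 20 for replication and 9 of 13 for the synthetases. They were 4 of 9 for glycolysis, 13 of 28 for the epithelial list and 12 of 28 for neuronal genes. For blood cells they were 4 of 34, for liver 1 of 29 and for striated muscle 4 of 37. Over all isolated promoters they were 5998 of 13055. The part of CpG content in the differences between lists was not tested.

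The strength of the peaks was compared across the lists, some of which had few. Median fold enrichment was 3.06 for glycolysis, 3.03 for proteasome, 2.95 for DNA replication, 3.18 for Mediator and 3.64 for mitochondrial ribosomal genes. It was 3.88 for the synthetases, 4.30 for the epithelial junction list and 4.42 for 6 neuronal genes. For 4 blood cell genes it was 6.81, for 2 liver genes 6.79 and for 2 striated muscle genes 6.88. The median over all isolated promoters with a peak was 3.95. Of the 4 blood cell genes, PAX5 for a B cell transcription factor, was below this at 3.67. In glycolysis, the pyruvate kinase gene PKM was highest at 4.62 with the summit in an exon at 731 bp, which is 102 bp from the canonical start. The phosphofructokinase gene PFKL followed at 3.28, the lactate dehydrogenase gene LDHA at 2.83 and GAPDH at 2.62. GAPDH, often used as a control gene, had 24 fragments at a summit 131 bp downstream. In the proteasome the ATPase PSMC4 (7.98) and the lid subunits PSMD3 (6.93) and PSMD11 (5.24) led, all with upstream summits. Mediator was led by MED13L at 8.90 and MED4 at 6.86, both upstream, and by CCNC, cyclin C of its kinase module, at 3.76.

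The highest of the replication genes was GINS4, a subunit of the replicative helicase, at 35.3 and 263 bp upstream. It stood far above the origin factor MCM10 at 6.07 and the clamp loader RFC2 at 4.30. Among synthetases, VARS1 for valine had 9.46 at 285 bp upstream and another of 2.92 at 774 bp downstream, RARS1 for arginine had 7.37 and QARS1 for glutamine 4.52. MRPL39, of the large mitochondrial ribosomal subunit, also had 2 peaks, one of 26.5 at 930 bp upstream and one of 7.86 at 82 bp upstream. MRPL38 had 18.8 at 74 bp upstream and MRPL34 had 9.98 in an intron, 12896 bp upstream of its canonical start. The junction genes were led by JUP, which encodes plakoglobin, at 7.93, MARVELD2, which encodes tricellulin, at 7.04 and OCLN, which encodes occludin, at 5.29.

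Among genes of other tissues, the T cell co-receptor gene CD8A had 51.1 from 405 fragments, in a peak 1903 bp wide with the summit 159 bp upstream. The summit was 17642 bp upstream of the canonical CD8A start. The integrin gene ITGB2 had 9.28 and the interleukin receptor gene IL7R had 4.35, both upstream. From the canonical start these ITGB2 and IL7R summits were 11890 and 4695 bp upstream. The NMDA receptor subunit gene GRIN2B had 12.4 at 216 bp upstream, followed by the synaptic genes CPLX2 at 5.07 and VSNL1 at 4.65, whose summits were 74522 and 1690 bp upstream of the canonical start. The 2 liver genes were HPX for hemopexin at 6.92 and the cytochrome gene CYP2E1 at 6.67, with summits 2613 and 7014 bp upstream of the canonical start. The 2 muscle genes encode troponins, TNNT3 at 8.41 and TNNT2 at 5.36. RAD21 itself and TMEM242, whose intron holds the locus that the study imaged, had no member peak. The rule also drops summits near another gene start, so this does not show that RAD21 was absent from either gene. The paper describes a cohesin peak next to the imaged repeats.

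C8orf82 had 3 member peaks. They were 958 bp upstream (fold 5.46), 105 bp downstream (4.20) and 811 bp downstream (3.29), so the middle one lay close to the start on its downstream side. At the edge of the rule, the peak of the mitochondrial peptidase gene MIPEP had its summit exactly 1000 bp upstream with a fold of 11.9. The calcium channel gene CACNB3 (11.5) and the nucleotidase gene NT5E (3.24) had theirs 1000 bp downstream. The CACNB3 summit was 3702 bp upstream of the canonical start. The nearest peaks left out were at the mucin gene MUC5B on the upstream side, with 4.78, and on the downstream side at EGLN1, an oxygen-sensing hydroxylase gene (3.03), and RBM39, a splicing factor gene (2.9), each 1 bp past the limit.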

How the data were processed

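After trimming, the authors mapped the read pairs on GRCh38, dropped duplicates and called peaks over Input, for this library alone. The submitters' processing notes name Trimmomatic 0.39, Bowtie2 2.5.3, Picard MarkDuplicates, MACS2 2.2.9.1 and deepTools 3.5.4. Which Input served as control of the wild-type library is not given in the sources used here. The deposited list gives, per peak, the fold enrichment (a ratio with 1 added to ChIP and background), the −log10 of the p-value and of the q-value, and a score, which was not used. Read totals are not in the list. The narrowest peak (222 bp) and the lowest background (5.90 fragments, at 17739 peaks) correspond to about 74600000 ChIP fragments over the genome size used for calling, an inferred total.

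Fragments at a summit were solved from fold and Poisson p, and were whole within 0.05 of a step for all but 14 of 56853 peaks. All sequence names matched GRCh38. Gene starts are the 5′ ends of gene rows in GENCODE version 44, which are the most upstream annotated transcript ends, and the Ensembl canonical start was an alternative. Positions are signed along the gene. The CTCF consensus sequence of 12 letters was searched on both strands within 50 bp of summits. Shares have 95% Wilson intervals, and medians have quartiles. Scripts were tested on simulated data.

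Named genes were those of the 10 highest, 5 widest, 3 highest within 25 bp, 3 highest upstream and downstream by over 250 bp, 3 just inside and outside 1000 bp, those with at least 3 peaks, the 3 highest of each list, and GAPDH, RAD21 and TMEM242. A gene that this rule names is not reported here. The members and lists were chosen with earlier results of these data known. Alternatives were stricter q-values, other distances, canonical starts, whole peaks, midpoints, low background, fewer neighbour types and other motif settings. The tools were samtools 1.23.1, pysam 0.24.0, scipy 1.17.1, pandas 2.3.3, numpy 2.4.6 and matplotlib 3.10.9 under Python 3.11.15.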

Additional observations from a re-analysis of the deposited data

Results flagged for a closer look

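Chromosome X lay outside the rule but is in the list. Applied there, the same rule found 51 peaks at single protein-coding promoters among 1135 peaks (4.49%), which was listed for a closer look because the signal lies in data that the comparisons do not use. Of 666 isolated promoters on chromosome X, 47 had such a peak (7.06%, 95% Wilson interval 5.35 to 9.26), against 27.9% on chromosomes 1 to 22, where the lowest share of a chromosome was 22%. The peaks that were called on X had a higher median fold enrichment, 5.94 (quartiles 4.28 and 9.44) against 3.80. The cause was not tested.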

How the results depend on the processing

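No paired analysis was possible because there was 1 library. Of 142 values under alternative settings, 88 stayed within the 95% interval of the reported value (for the number of members, within 1.5 times of it), 52 moved and 2 reversed. Both reversals came from measuring the same members from the canonical start, which cannot lie before the gene start. The median position was then -31 bp and the downstream share 47.9%, with 39.8% within 250 bp and downstream shares of 16.1% at a fold of at least 10 and 60.2% below 5. The number of members ran from 2807 to 4781. At a q-value of 0.01 the median fold enrichment was 3.91 and the share of isolated promoters with a peak 27.0%. At 0.001 the downstream share was 56.5%, the median position 99 bp, the width 519 bp, the fold 4.12 and the isolated share 24.9%. At 1e-05 these were 52.1%, 34 bp, 571 bp, 4.93 and 20.1%, with 45.0% of summits within 250 bp and 5.17% with a CTCF consensus. A distance of 500 bp gave a median position of 76 bp, 59.1% within 250 bp, an isolated share of 21.0% and a downstream share of 23.5% at a fold of at least 10. A distance of 2000 bp gave 153 bp, 32.4%, 31.4% and 32.5%, with a fold of 3.99 and a consensus share of 4.75%. Members chosen anew by canonical starts gave 96 bp, 43.9%, 30.6% and 22.1%, with a fold of 3.71. Their downstream share was 57.0%, within the interval of the reported value. With whole peaks, 37.7% were within 250 bp, the fold was 3.91 and the isolated share 29.4%. With midpoints the downstream share was 65.3%, the median 169 bp, 38.4% within 250 bp and the consensus share 1.60%, and the downstream shares were 41.7% at a fold of at least 10 and 73.6% below 5. With a low background the isolated share was 26.6%. The consensus share was 16.3% with 1 mismatch, 16.4% with a matrix and 21.8% with the re-estimated matrix. Within 50 bp of the summit, a window shorter than the promoter one, the motif shares were 0.415% for TATA, 5.00% for CCAAT, 27.9% for the GC box, 2.93% for ETS, 0.146% for CRE, 1.73% for the E-box and 0.391% for NRF1. The downstream share was lower at a fold of at least 10 than below 5 under each of the 10 alternatives for peaks and starts, and for the same members measured from the canonical start. The re-estimated matrix, the same members measured from the canonical start and the shares by fold class were added after seeing the data. Peaks near the threshold rest on as few as 15 fragments, and their summits are less certain. The cause of the moves was not tested, beyond stricter thresholds keeping fewer, higher peaks.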
